A study of Mus musculus with 8 samples.

Results

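The serpins examined here are all genes whose array annotation symbol begins with Serpin, apart from Serpina7, which was left out. There were 47 such genes among 19935 genes with a probe set of their own on Affymetrix Mouse Gene 1.0 ST arrays, and each of the 47 had exactly 1 such probe set. By clade letter they were 14 in clade A, 24 in clade B, 2 each in clades F and I, and 1 each in clades C, D, E, G and H. A further 5 probe sets matched several serpins at once, and the genes Serpina1a, Serpina1b, Serpina1e, Serpinb9f and Serpinb9g were read only through these. The RNA was from the livers of male C57Bl/6 mice, 10 to 12 weeks old, fed normal chow, kept on a cycle with 12 h light and 12 h dark, and sampled at ZT10, which is 10 h after lights on. NS-DADm livers (4 samples) have a mutated deacetylase-activating domain in both NCOR and SMRT, corepressors that use this domain to bind and switch on the histone deacetylase HDAC3. The other 4 samples were wild type (WT). Which cells carry the mutations is not given in the labels. Nor do they tie arrays to individual mice, so the p-values rest on a spread among arrays that may be purely technical. Values are log2 intensities. Probes differ in brightness, so levels are compared only within a gene.

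Serpins are a large family that share a fold with an exposed reactive loop. In inhibitory members a protease cleaves the loop, and the serpin then snaps into a new shape and traps the protease for good. Other members have lost inhibition and serve as hormone carriers or chaperones. The liver is the main source of the plasma serpins of clades A, C, D, F and G, which limit neutrophil elastase, thrombin, plasmin, factor Xa and the complement C1 proteases. Clade B serpins mostly stay inside cells, many of them leukocytes or epithelia, and protect them from their own granule proteases and from cathepsins.

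No serpin gene passed the test in NS-DADm against WT liver. With limma, 0 of 47 had an adjusted p under 0.05, against 54 of all 19935 genes (0.271%). At an unadjusted p under 0.05 there was 1 of 47, Serpina10, against 9.33% of all genes. The median log2 difference, NS-DADm minus WT, was -0.00 over the 47 serpins and -0.01 over all genes, and the median absolute difference was 0.05 in both. For 45 of 47 serpins the 95% confidence interval lay within a 1.5-fold change in either direction (97.2% of all genes did), and for 36 of 47 within a 1.2-fold change (70.7% of all genes). The exceptions at 1.5-fold were Serpina12 and Serpina4-ps1, whose values differed by up to 6.97-fold and 3.75-fold between arrays of the same group. Of the 47 serpins, 30 lay below the array median on all 8 arrays (9242 of all 19935 genes did) and 13 above it on all 8. The values carry no detection calls, and the RMA method named by the submitters is known to shrink differences at low intensity. Narrow intervals of dim serpins may thus understate how far their RNA could differ. Groups did not overlap for 2 of 47 serpins, Serpina10 above and Serpina1c below, against 5.63% of all genes.

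**Figure D1:**
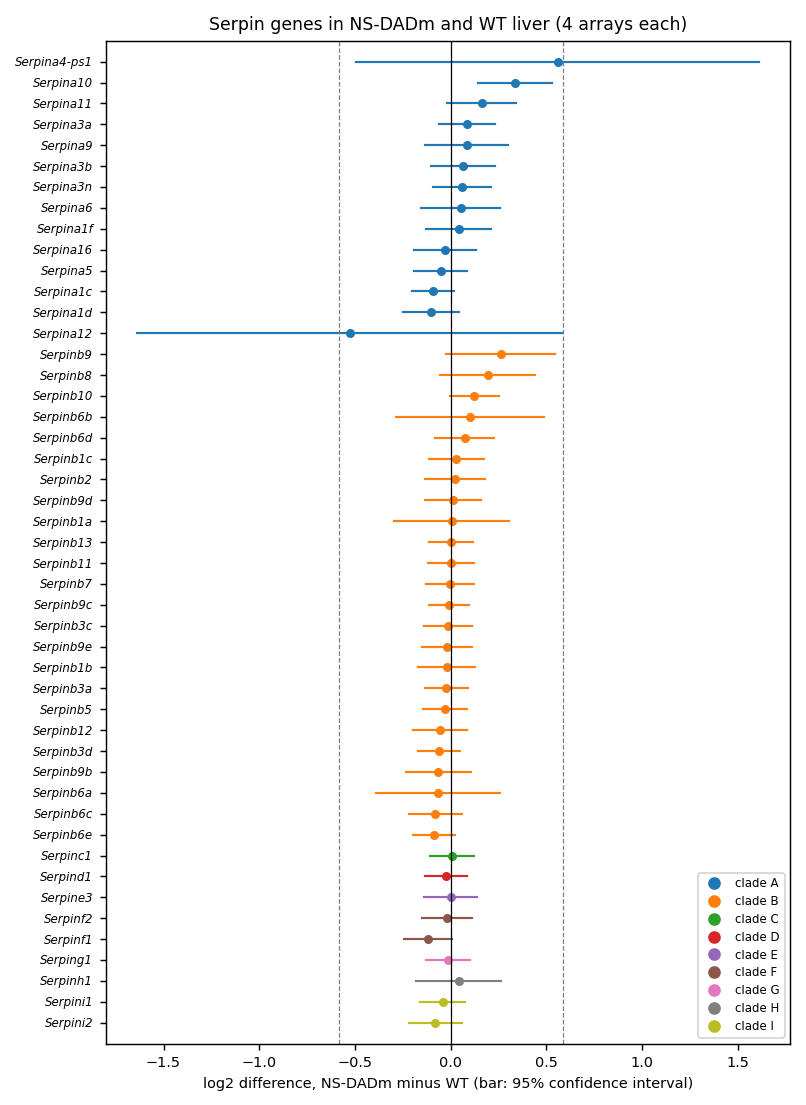
Log2 difference between NS-DADm and WT liver (x axis) for the 47 serpin genes (y axis), coloured by clade. Points are fitted differences, bars their 95% confidence intervals from 4 arrays per group, and dashed lines mark a 1.5-fold change. Only the bars of Serpina12 and Serpina4-ps1 cross the dashed lines.

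The arrays were alike as wholes. Their medians lay between 7.39 and 7.50, and pairs of arrays correlated at 0.993 to 0.998 within groups and 0.993 to 0.997 between groups. All 10 hepatocyte markers, albumin (Alb) among them, lay above the array median on all 8 arrays, and their mean was 13.57 to 13.60 in NS-DADm and 13.59 to 13.60 in WT. The spread within a group was smaller among bright genes: its median SD was 0.115 for genes near an intensity of 8.75 and 0.0367 for those near 13.68. Many plasma serpins lie in that bright range, and whether the arrays compress differences there was not tested.

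The alpha-1-antitrypsin genes are clade A members that encode the main plasma inhibitor of neutrophil elastase. Mice carry several near-identical copies side by side on chromosome 12, and 2 probe sets of the array match all 5 of them. The 5 copies Serpina1a to Serpina1e are shown upstream of their annotated start sites (RefSeq, GRCm38.p6, minus strand, 5′ to 3′). They are aligned on a half-site for the liver transcription factor HNF1, with 80 bases before it and 10 after it. That half-site begins 16 to 27 bases before the start site in Serpina1a to Serpina1d, and 78 bases before it in Serpina1e. Capitals mark the half-site GTTAAT, searched on both strands.
Serpina1a (chr12:103863625-103863720): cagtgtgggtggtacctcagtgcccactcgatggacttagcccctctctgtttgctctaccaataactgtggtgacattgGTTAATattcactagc
Serpina1b (chr12:103738200-103738295): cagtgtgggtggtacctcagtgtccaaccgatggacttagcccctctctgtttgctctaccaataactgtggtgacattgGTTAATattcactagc
Serpina1c (chr12:103904962-103905057): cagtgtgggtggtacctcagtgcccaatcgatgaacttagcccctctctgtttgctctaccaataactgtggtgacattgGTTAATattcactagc
Serpina1d (chr12:103773634-103773729): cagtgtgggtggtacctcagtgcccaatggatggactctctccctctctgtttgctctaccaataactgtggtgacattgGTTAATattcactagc
Serpina1e (chr12:103956960-103957055): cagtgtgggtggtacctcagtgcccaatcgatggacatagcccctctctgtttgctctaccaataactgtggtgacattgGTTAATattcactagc
Over these 96 bases the 10 pairs of copies differed at 2 to 7 bases (92.7 to 97.9% identity), and the pairs with Serpina1d differed most. All 5 copies held GTTAAT in the 250 bases before the start, as did 6.52% of the 27025 windows in the table. Of the 47 serpins 40 had such a window, and 5 of the 40 held it: Serpina1c, Serpina1d, Serpinb3d, Serpinb8 and Serpini2. A match is a description of letters and not of a bound site.

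Serpina1c (Entrez Gene 20702) read 13.66, 13.62, 13.61 and 13.70 in WT replicates 1 to 4. In NS-DADm replicates 1 to 4 it read 13.58, 13.54, 13.57 and 13.52. All 4 NS-DADm arrays thus lay below all 4 WT arrays, as did the groups of 3.83% of all genes. The difference was small, at -0.09 (SE 0.0496, 95% confidence interval -0.20 to 0.02), and did not pass limma's test (adjusted p = 0.613).

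Serpina1d read 13.07, 13.06, 12.98 and 12.98 in WT replicates 1 to 4, and 13.03, 12.99, 12.78 and 12.87 in NS-DADm replicates 1 to 4. NS-DADm replicates 3 and 4 lay below every WT array, and the other pair inside the WT range. The means were 13.02 ± 0.05 and 12.92 ± 0.12 (SD, n = 4 each), a difference of -0.10 (95% confidence interval -0.25 to 0.04, limma adjusted p = 0.721). The 2 probe sets shared by all 5 copies differed by -0.02 (95% confidence interval -0.12 to 0.09) and -0.04 (-0.14 to 0.06). How much each copy adds to either signal is uncertain. Serpina1f, a related gene of the same cluster, averaged 6.02 ± 0.13 in WT and 6.06 ± 0.09 in NS-DADm and lay below the array median on every array.

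Serpina3n is one of the mouse genes related to human alpha-1-antichymotrypsin, and its plasma protein is known to rise in inflammation. Its values in WT replicates 1 to 4 were 12.90, 12.89, 12.87 and 12.78. In NS-DADm replicates 1 to 4 they were 13.06, 12.99, 12.86 and 12.78. NS-DADm replicates 1 and 2 lay above every WT array, while replicates 3 and 4 lay inside or at the foot of the WT range. The difference was 0.06 (95% confidence interval -0.09 to 0.21, limma adjusted p = 0.914), and ran from 0.0135 without NS-DADm replicate 1 to 0.104 without NS-DADm replicate 4. Of 20 other acute phase genes measured on the same arrays, 4 were higher in NS-DADm (0.161% of all genes were) and 0 lower: Saa2 by 1.63, Lcn2 by 1.29, Orm2 by 0.996 and Fgl1 by 0.80 on the log2 scale. Their adjusted p in limma was 0.0177, 0.0479, 0.00718 and 0.0102. The median of the 20 was 0.20. Their mean was 11.88, 11.74, 11.58 and 11.47 in NS-DADm replicates 1 to 4 and 11.11 to 11.20 in WT, so NS-DADm replicates 1 and 2 were highest both for this list and for Serpina3n. Whether Serpina3n differs in response from these genes was not tested. The other measured relatives, Serpina3a and Serpina3b, lay below the array median on all arrays and differed by 0.08 and 0.06. The further copies of this cluster were not analysed here. Whether the probes read as Serpina3n also pick up RNA of such close copies was not tested, so its values are uncertain to that extent.

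Serpina10 (Entrez Gene 217847) encodes the protein Z-dependent protease inhibitor, which switches off coagulation factor Xa on membranes with the help of protein Z. It read 11.15, 11.18, 10.97 and 11.17 in WT replicates 1 to 4. The NS-DADm values were 11.55, 11.64, 11.31 and 11.31. All 4 NS-DADm arrays lay above all 4 WT arrays, as did those of 1.8% of all genes. The log2 difference was 0.34 (SE 0.0871, 95% confidence interval 0.14 to 0.53), or 1.26-fold, with an unadjusted p of 0.00287 and a limma adjusted p of 0.209. With 1 array left out the difference ran from 0.27 to 0.38. As the groups do not overlap, no such omission could turn its sign. Its lowest limma adjusted p under any alternative was 0.103, without NS-DADm replicate 4. Proz, which encodes its cofactor protein Z, averaged 11.55 ± 0.06 in WT and 11.51 ± 0.06 in NS-DADm (limma adjusted p = 0.934). F10, which encodes factor X, averaged 11.42 ± 0.04 and 11.39 ± 0.03 (adjusted p = 0.948).

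Serpina12 (Entrez Gene 68054) encodes vaspin, a serpin first described in visceral fat that inhibits the tissue protease kallikrein 7. It read 8.56, 8.87, 8.51 and 8.66 in WT replicates 1 to 4. The NS-DADm replicates 1 to 4 read 9.14, 9.11, 7.90 and 6.34. Replicates 1 and 2 were above all WT arrays, and replicates 3 and 4 below all of them. The SD was thus 0.16 in WT and 1.32 in NS-DADm, and the NS-DADm arrays spanned 6.97-fold against 1.29-fold in WT. Within NS-DADm this SD ranked 2 of 19935 genes, while within WT it ranked 4102. The mean difference, -0.53 (95% confidence interval -1.64 to 0.58, limma adjusted p = 0.871), rests on replicate 4: without it the difference was 0.07.

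The 250 bases upstream of the Serpina12 start (RefSeq, GRCm38.p6, chr12:104044444-104044693, minus strand) are shown because no other serpin varied as much between arrays of a group.
Serpina12: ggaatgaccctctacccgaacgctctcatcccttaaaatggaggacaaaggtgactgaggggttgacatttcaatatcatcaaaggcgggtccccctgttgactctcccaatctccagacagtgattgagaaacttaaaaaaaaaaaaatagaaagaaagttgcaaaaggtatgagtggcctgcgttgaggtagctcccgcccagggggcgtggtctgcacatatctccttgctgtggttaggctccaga
Neither the HNF1 half-site GTTAAT nor the STAT palindrome TTCNNNGAA, which reads the same on both strands, was found in it. That says only that these letters are not in this window.

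Serpina4-ps1 (Entrez Gene 321018), a transcribed pseudogene related to the kallikrein inhibitor kallistatin, varied within both groups. In WT replicates 1 to 4 it read 12.43, 12.04, 10.69 and 10.64. In NS-DADm replicates 1 to 4 it read 12.66, 12.46, 12.15 and 10.76. WT replicates 3 and 4 and NS-DADm replicate 4 were low, and the other 5 arrays were between 12.04 and 12.66, so arrays of both groups lay at either level. The SD ranked 3 of 19935 genes within WT and 24 within NS-DADm, and arrays spanned 3.46-fold in WT and 3.75-fold in NS-DADm. The mean difference of 0.56 (95% confidence interval -0.49 to 1.61, limma adjusted p = 0.831) ran from 0.29 without WT replicate 4 to 0.98 without NS-DADm replicate 4. Serpina4-ps1 lies between Serpina12 and Serpina5 in the serpin cluster of chromosome 12 (RefSeq, GRCm38.p6). NS-DADm replicate 4 was the lowest array of its group for both Serpina4-ps1 and its neighbour Serpina12. In WT, replicates 3 and 4 were low for Serpina4-ps1, whereas all WT arrays lay within 0.36 of each other for Serpina12. Serpina5, the protein C inhibitor, lay below the array median on all 8 arrays and averaged 6.33 ± 0.08 in WT and 6.28 ± 0.08 in NS-DADm.

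**Figure D2:**
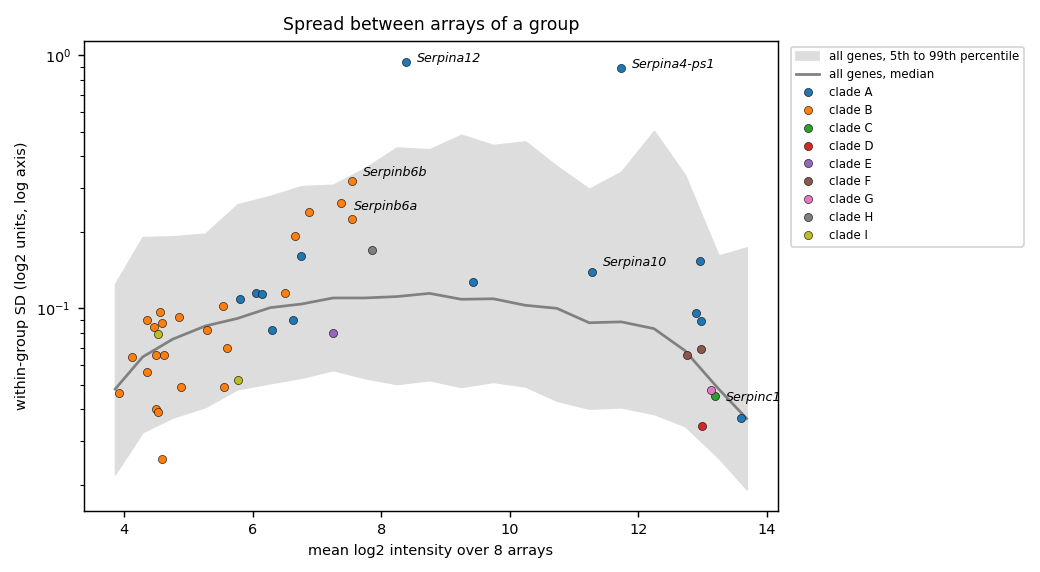
Within-group SD (y axis, log2 units on a log axis) against the mean log2 intensity over 8 arrays (x axis) for the 47 serpins, coloured by clade, with all genes as a grey band (5th to 99th percentile in steps of intensity) and line (median). Serpina12 and Serpina4-ps1 lie far above the band.

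Pooled over both groups, Serpina12 ranked 2 and Serpina4-ps1 ranked 4 of 19935 genes by within-group SD. The next serpin, Serpinb6b, ranked 314. Marker lists of other liver cells also varied among the NS-DADm arrays. Kupffer cell markers (8 genes) averaged 8.47, 8.78, 9.15 and 9.56 in NS-DADm replicates 1 to 4 and 8.60 to 9.20 in WT, and sinusoidal endothelial markers (9 genes) 9.09, 9.35, 9.35 and 9.70 in NS-DADm and 9.54 to 9.72 in WT. All 9 endothelial markers had log2 differences below 0, with a median of -0.26, and 0 passed limma's test, against 0.271% of all genes. At an unadjusted p under 0.05 there were 6 of the 9, against 9.33% of all genes, and 44.3% of all genes had differences above 0. The mean of the hepatocyte list lay within 13.57 to 13.60 on every array, though Tat, a hepatocyte enzyme gene, differed by -0.20 (limma adjusted p = 0.427). NS-DADm replicate 4, lowest for Serpina12, was the highest of its group for the Kupffer and endothelial lists. It was also the highest of its group for the stellate cell and fibroblast list (8.29, 8.47, 8.57 and 8.92 in NS-DADm replicates 1 to 4) and for the neutrophil, T and NK cell, and B and plasma cell lists, but not for the cholangiocyte and platelet lists. The acute phase list averaged 11.88, 11.74, 11.58 and 11.47 in NS-DADm replicates 1 to 4. It thus fell in the same order as Serpina12 and Serpina4-ps1. In WT the list lay within 11.11 to 11.20, while Serpina4-ps1 spanned 3.46-fold. The part of these cell types, or of the acute phase genes, in the spread of Serpina12 and Serpina4-ps1 was not tested. In bulk liver, fewer cells of a type and less RNA per cell cannot be told apart.

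**Figure D3:**
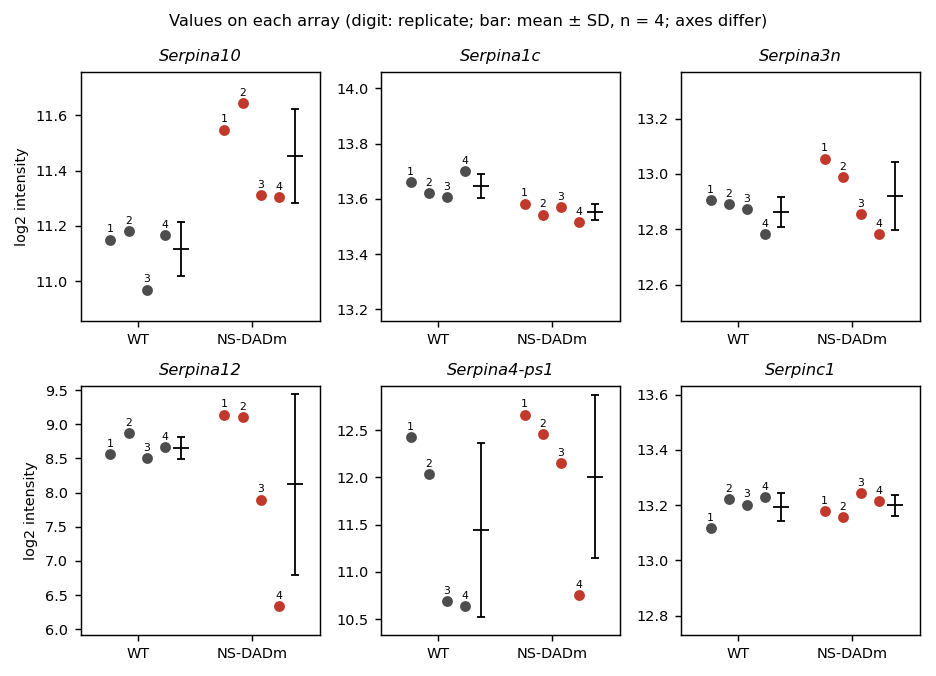
Log2 intensity (y axis) of 6 serpins on each of the 4 WT and 4 NS-DADm arrays, with the replicate number beside each point and the mean ± SD of the group as a black bar; the axes differ in range. Serpina10 and Serpina1c separate the groups by small steps, Serpina3n and Serpinc1 overlap, and Serpina12 and Serpina4-ps1 spread over more than 2 log2 units.

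Serpina6 and Serpina11 were highest on NS-DADm replicate 4. Serpina6 encodes corticosteroid-binding globulin, the plasma carrier of glucocorticoids. It read 12.97, 12.98, 12.89 and 12.87 in WT replicates 1 to 4, and 12.76, 12.88, 13.05 and 13.24 in NS-DADm replicates 1 to 4. NS-DADm arrays thus lay on both sides of the WT range. The difference was 0.05 (95% confidence interval -0.15 to 0.26, limma adjusted p = 0.959), and -0.03 without NS-DADm replicate 4. Serpina11, whose function is little known, read 9.34, 9.43, 9.33 and 9.30 in WT replicates 1 to 4. Its NS-DADm values were 9.42, 9.34, 9.55 and 9.73, so only replicates 3 and 4 lay above every WT array. The difference was 0.16 (95% confidence interval -0.02 to 0.34, limma adjusted p = 0.597), or 0.09 without NS-DADm replicate 4. Serpina11 was 1 of 4 serpins among the 40 with a window, with Serpina1f, Serpinb6a and Serpinb9c, that held TTCNNNGAA, the palindrome read by STAT factors, in the upstream 250 bases (7.18% of all windows did). Its stretch is shown with the palindrome in capitals (RefSeq, GRCm38.p6, chr12:103989970-103990048, minus strand).
Serpina11: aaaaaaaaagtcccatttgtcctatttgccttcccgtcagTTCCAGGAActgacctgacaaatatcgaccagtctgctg
The remaining clade A members were Serpina9 and Serpina16, below the array median on every array, with differences of 0.08 and -0.03. Clade A as a whole had a median difference of 0.06, with 9 of 14 above 0 and 5 below, against 44.3% of all genes above 0. Leaving out NS-DADm replicate 1 gave a median of 0.0132, and leaving out WT replicate 4 gave 0.0146.

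The single-gene clades of plasma inhibitors were tightly bounded. Serpinc1 encodes antithrombin, the main inhibitor of thrombin and factor Xa. It read 13.12, 13.22, 13.20 and 13.23 in WT replicates 1 to 4, and 13.18, 13.16, 13.24 and 13.22 in NS-DADm replicates 1 to 4. The groups overlapped in part, WT replicate 1 below every NS-DADm array and NS-DADm replicate 3 above every WT array, with a difference of 0.01 (95% confidence interval -0.11 to 0.12, limma adjusted p = 0.995). Serpind1, heparin cofactor II, is another thrombin inhibitor. It read 12.94, 13.02, 13.01 and 13.03 in WT replicates 1 to 4 and 12.99, 12.97, 12.94 and 13.003 in NS-DADm replicates 1 to 4. All NS-DADm arrays fell inside the WT range, and the difference was -0.02 (interval -0.13 to 0.09, limma adjusted p = 0.969). Serping1, the C1 inhibitor of complement and contact activation, read 13.09, 13.14, 13.12 and 13.17 in WT and 13.07, 13.10, 13.08 and 13.20 in NS-DADm. Its groups overlapped as well, with a difference of -0.01 (interval -0.13 to 0.10, limma adjusted p = 0.987).

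Clade F holds Serpinf2, alpha-2-antiplasmin, the inhibitor of plasmin, and Serpinf1, pigment epithelium-derived factor, a secreted serpin that does not inhibit proteases. Serpinf2 read 13.02, 12.96, 13.03 and 12.94 in WT replicates 1 to 4 and 12.93, 12.99, 12.87 and 13.08 in NS-DADm replicates 1 to 4. The NS-DADm arrays reached both below and above the WT range, and the difference was -0.02 (interval -0.15 to 0.11, limma adjusted p = 0.979). Serpinf1 read 12.76, 12.83, 12.88 and 12.79 in WT replicates 1 to 4. In NS-DADm it read 12.64, 12.67, 12.65 and 12.81, so that replicates 1 to 3 lay below every WT array and replicate 4 inside the WT range. The difference was -0.12 (interval -0.24 to 0.01, limma adjusted p = 0.574), and -0.16 without replicate 4 (adjusted p = 0.292).

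Among 24 clade B genes 11 had differences above 0 and 13 below, with a median of -0.01 and a range of -0.09 to 0.26. With limma 0 passed the test, 0 had an unadjusted p under 0.05 and 0 had groups that did not overlap (0.271%, 9.33% and 5.63% of all genes). On all 8 arrays 21 of the 24 lay below the array median, and the other 3, Serpinb6a, Serpinb6b and Serpinb9, lay above it on 2 to 4 arrays. The values used carry no detection calls, so whether these 21 were above background is not known. The clade sits in one cluster on chromosome 13 (13 genes measured, median difference -0.01) and another on chromosome 1 (11 genes, -0.00). The median SE was 0.0672 in the first and 0.0569 in the second.

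Serpinb9 encodes an inhibitor of granzyme B that shields cytotoxic lymphocytes and their neighbours. It had the largest difference of clade B, from 7.05, 7.47, 7.41 and 7.73 in WT replicates 1 to 4 to 7.60, 7.51, 7.86 and 7.72 in NS-DADm. WT replicates 1, 2 and 3 lay below every NS-DADm array, and WT replicate 4 lay inside the NS-DADm range. The difference was 0.26 (interval -0.02 to 0.55, limma adjusted p = 0.588), with 0.14 without WT replicate 1 and 0.37 without WT replicate 4. Gzmb, the granzyme B gene, averaged 5.96 ± 0.09 in WT and 6.07 ± 0.20 in NS-DADm.

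Serpinb8, an intracellular inhibitor, read 7.04, 6.57, 6.51 and 6.87 in NS-DADm against 6.40, 6.60, 6.55 and 6.66 in WT. Replicates 1 and 4 of NS-DADm were above all WT arrays. The difference of 0.19 (limma adjusted p = 0.666) was 0.10 without NS-DADm replicate 1. Serpinb10, found mainly in blood cells, read 4.49, 4.62, 4.52 and 4.57 in WT and 4.61, 4.63, 4.69 and 4.77 in NS-DADm. Its groups overlapped by 1 array, and the difference was 0.12 (limma adjusted p = 0.544), near the low end of the intensity scale.

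The 5 Serpinb6 genes, whose human relative SERPINB6 inhibits cathepsin G, had differences on both sides of 0, with Serpinb6b at 0.10 and Serpinb6d at 0.07, and the other 3 were the lowest of clade B. Serpinb6e read 4.55, 4.502, 4.61 and 4.60 in WT and 4.46, 4.51, 4.48 and 4.46 in NS-DADm, a difference of -0.09 (limma adjusted p = 0.653). Serpinb6c read 5.26, 5.34, 5.36 and 5.36 in WT and 5.21, 5.15, 5.39 and 5.25 in NS-DADm, a difference of -0.08 (adjusted p = 0.815). Both were dim, and their groups overlapped. The difference of Serpinb6a was -0.06 (95% confidence interval -0.39 to 0.26, adjusted p = 0.972). Apart from the Serpinb6 genes, Serpinb8, Serpinb9 and Serpinb10, clade B differences ran from -0.06 (Serpinb9b) to 0.03 (Serpinb1c).

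The widest spread within groups in clade B was that of Serpinb6b, Serpinb6a and Serpinb1a, the last an inhibitor of neutrophil elastase and related proteases. Serpinb6a read 7.32, 7.45, 7.17 and 7.71 in WT and 7.07, 7.14, 7.48 and 7.69 in NS-DADm replicates 1 to 4. Serpinb6b read 7.09, 7.26, 7.63 and 7.97 in WT and 7.58, 7.57, 7.33 and 7.87 in NS-DADm, and its difference of 0.10 (limma adjusted p = 0.959) ran from -0.0318 without WT replicate 1 to 0.261 without WT replicate 4. Replicate 4 was the highest array of its group for both genes, in WT as in NS-DADm. It was also the highest for the Kupffer cell list in both groups (9.20 in WT and 9.56 in NS-DADm). Serpinb6a rose in the same order as that list over NS-DADm replicates 1 to 4, but not in WT. Serpinb6b was lowest on NS-DADm replicate 3 and WT replicate 1. On those arrays the list averaged 9.15 and 9.07, exceeded in each group only on replicate 4. The part of those cells in these values was not tested. Serpinb1a averaged 6.87 ± 0.12 in WT and 6.88 ± 0.32 in NS-DADm, with 7.31 on NS-DADm replicate 3 and 6.56 on replicate 2. The 3 probe sets shared by Serpinb9d, Serpinb9e, Serpinb9f and Serpinb9g differed by 0.06, 0.07 and 0.04 at intensities between 4.94 and 5.52, and the single-gene probe sets of Serpinb9d and Serpinb9e by 0.01 and -0.02.

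Serpinh1 (clade H) encodes HSP47, the endoplasmic reticulum chaperone of collagen. It read 7.77, 7.94, 7.85 and 7.76 in WT replicates 1 to 4 and 7.64, 8.06, 7.72 and 8.07 in NS-DADm, with NS-DADm replicates 2 and 4 above and 1 and 3 below every WT array. The difference was 0.04 (interval -0.18 to 0.26, limma adjusted p = 0.974). Of the 10 collagen genes measured, which encode clients of HSP47, 0 passed limma's test (0.271% of all genes did). At an unadjusted p under 0.05 there were 0 of the 10, against 9.33% of all genes. The largest differences were those of Col4a2 (-0.11) and Col1a2 (-0.07). Serpine3 of clade E read 7.34, 7.16, 7.27 and 7.21 in WT and 7.29, 7.27, 7.30 and 7.12 in NS-DADm replicates 1 to 4, a difference of -0.00 (interval -0.14 to 0.14, limma adjusted p = 1). Its direction turned under several settings.

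Clade I lay below the array median on all arrays. Serpini1, or neuroserpin, an inhibitor of tissue plasminogen activator, read 5.83, 5.75, 5.76 and 5.80 in WT and 5.65, 5.74, 5.80 and 5.77 in NS-DADm, a difference of -0.04 (limma adjusted p = 0.924). Serpini2 differed by -0.08 (adjusted p = 0.806).

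**Figure D4:**
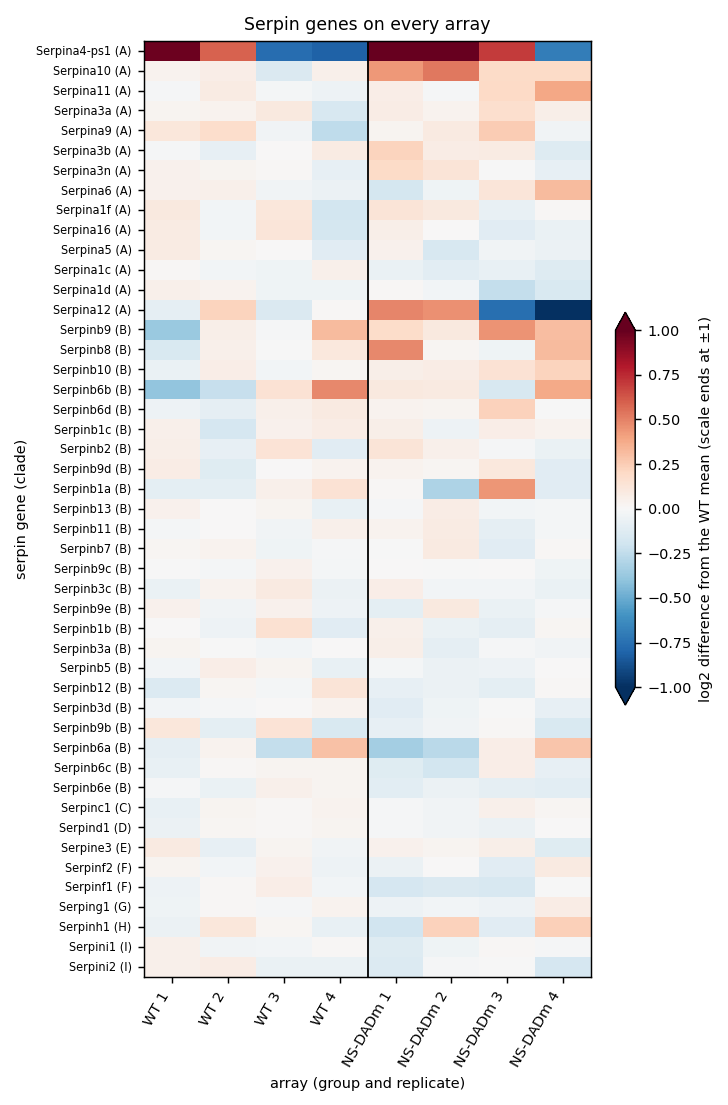
Each serpin (rows, ordered by clade and difference) on each array (columns, 4 WT then 4 NS-DADm), as the log2 difference from that gene's WT mean, with the colour scale ending at ±1. The strongest colours are in the rows of Serpina4-ps1 and Serpina12 and change sign within a group.

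Related genes were read from 8 lists besides the acute phase genes. The lists hold proteases with some cofactors and receptors, other plasma protease inhibitors, collagens, and genes of serpin folding, secretion and clearance. They are thus not limited to targets of serpins. Of their 88 genes 0 passed limma's test in either direction (0.271% of all genes did), and 10 had an unadjusted p under 0.05 (9.33% of all genes did). Of 14 coagulation proteases and cofactors the median difference was -0.02, and the largest were those of F8 (-0.18, adjusted p = 0.81) and Hgfac (-0.16, adjusted p = 0.509). F8 is made largely by sinusoidal endothelial cells, whose 9 markers had a median of -0.26, and their part in its value was not tested. F2, which encodes prothrombin, averaged 13.18 ± 0.03 in WT and 13.17 ± 0.02 in NS-DADm. Of 6 fibrinolysis genes the median was -0.01, with Plgrkt, a plasminogen receptor gene, at 0.31 and Plat, tissue plasminogen activator, at -0.07. Of 7 complement proteases 1 lay above 0 (44.3% of all genes did), and the median was -0.11. At an unadjusted p under 0.05 in limma there were 3 of the 7, against 9.33% of all genes. C1s1, a C1 protease gene and target of the C1 inhibitor, averaged 11.92 ± 0.06 in WT and 11.67 ± 0.12 in NS-DADm (difference -0.24, limma adjusted p = 0.239), and Cfi, complement factor I, differed by 0.16 (adjusted p = 0.431).

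Leukocyte and mast cell serine proteases (11 genes) had a median of -0.01, and all 11 lay below the array median on every array. Prtn3, the neutrophil proteinase gene, differed by 0.29 (adjusted p = 0.414) and Gzma, granzyme A, by 0.16. The 8 neutrophil markers averaged 6.33 to 6.52 in NS-DADm and 6.19 to 6.37 in WT. All 8 had differences above 0 (44.3% of all genes did). With limma 0 of the 8 passed the test (0.271% of all genes did) and 2 had an unadjusted p under 0.05 (9.33% did). The part of neutrophils in the value of Prtn3 was not tested. Cathepsins (11 genes) had a median of 0.09. Ctsc, which encodes the protease that activates granule serine proteases, averaged 10.86 ± 0.32 in WT and 11.44 ± 0.19 in NS-DADm (difference 0.57, limma adjusted p = 0.207), and Ctss, cathepsin S, differed by 0.26 (adjusted p = 0.852). The 15 plasma protease inhibitors that are not serpins had a median of 0.02, with Tfpi, tissue factor pathway inhibitor, at -0.16 and Itih3 at 0.13. Among 14 genes of serpin folding, secretion and clearance the median was -0.01, and Vldlr, a receptor that binds serpin-protease complexes, had the largest value (0.57, adjusted p = 0.226), followed by Mcfd2 (0.15), a secretion receptor subunit.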

How the data were processed

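Each of 8 liver RNA samples (4 NS-DADm, 4 WT) was measured on 1 array. The values are log2 intensities as deposited by the authors, and the log2 scale was read from the values (3.43 to 14.37). RMA and Partek are named in the submitters' processing notes, with order, versions and settings not given in the sources used here. RMA is known to shrink differences at low intensity. Batches and detection are not given there either.

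Probe sets were named from the platform annotation. Of 28270, 21780 named 1 gene, 1617 several and 4873 none. Each gene was represented by its highest-mean single-gene probe set. The fit used lmFit and eBayes from limma 3.58.1 (R 4.3.3; two-sided), with Benjamini-Hochberg adjustment over 19935 genes and a threshold of 0.05. Confidence intervals come from that fit, and ± marks the SD over 4 arrays. No low-value filter was applied. The number of arrays limits the precision. Steps were tested on simulated data. Figures used Python 3.11.15 and matplotlib 3.10.9.

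Values of every array are given for serpins under an unadjusted p of 0.05, with the highest mean of a clade, or among the 3 highest or 3 lowest differences of a clade with 5 or more genes. Of each list the changed genes, or the 2 largest differences, are named. Serpina3n, Serpina6, Serpinf1, Serpinb6b, Serpinb1a, Tat, F2, F10, Proz and Gzmb were singled out after their values were seen, as were the motifs and printed sequences. The members and lists were chosen with earlier results of these data known.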

Additional observations from a re-analysis of the deposited data

Results flagged for a closer look

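A single array stood apart from the other 3 of its group in 5 of 94 gene-by-group sets (47 serpins in 2 groups), as judged by its gap to the nearest array over the whole range (Dixon's criterion). Chance alone gives about 1 in 20 such sets. For Serpina10 it was WT replicate 3, at 10.97 against 11.15 to 11.18. For Serpinf1 it was NS-DADm replicate 4, at 12.81 against 12.64 to 12.67. For Serpinb13, which is expressed in squamous epithelia, NS-DADm replicate 2 was at 5.63 against 5.53 to 5.54. For Serpinb1c, WT replicate 2 was at 4.41 against 4.62 to 4.64, and for Serpinb9c, NS-DADm replicate 4 was at 4.56 against 4.60. The last 3 genes lay below the array median on every array.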

How the results depend on the processing

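The count of serpins past the threshold was 0 under all 18 alternatives, and the lowest limma adjusted p was that of Serpina10 each time (0.103 to 0.463). Not all of these could test the count. Each serpin had 1 probe set of its own, so averaging or separately testing the probe sets of a gene left the serpin values as they were. The threshold of 0.1 reused the main p-values, whose lowest adjusted value among serpins was 0.209. Over all genes the count of 54 became 109 with array weights, 105 with the replicate block and 109 at a threshold of 0.1, and ran from 13 (without WT replicate 2) to 126 (without NS-DADm replicate 4) when 1 array was left out; leaving out WT replicate 3 gave 22, NS-DADm replicate 2 gave 31 and NS-DADm replicate 3 gave 35. The arrays of the same number were not shown to be paired: their deviations correlated at 0.15, 0.05, -0.10 and 0.25, and not every array correlated best with its own number. The clade B median moved from -0.01 to 0.0537 over genes at or above the 25th percentile, which drops its dimmest members. The differences of 2 of the 19 serpins chosen by rule changed sign under other processing: Serpinc1 (-0.0195 after quantile normalization) and Serpine3 (0.0094 after quantile normalization, 0.0086 with array medians subtracted and 0.0129 with array weights). With an array left out 6 of these 19 changed sign: Serpina12 (-0.87 to 0.0662), Serpinb6a (-0.18 to 0.0337), Serpinc1 (-0.0184 to 0.0205), Serpine3 (-0.0287 to 0.0406), Serpinf2 (-0.057 to 0.0118) and Serpinh1 (-0.024 to 0.118). Some serpins outside the 19 changed sign as well, such as Serpina6 (-0.0339 to 0.1286) and Serpinb1a (-0.1383 to 0.112). Others outside the 19, such as Serpina3n (0.0135 to 0.1041), did not. The cause was not tested. At a filter at the median level no gene of clades B and E was left, so it gave no value for them. Dim probes and the bright range, where the spread is small, limit what these arrays can show.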
